A study of Mus musculus with 12 samples.

Results

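The comparison set 3 libraries from trained Mbnl2 knockout (KO) mice against 3 libraries from trained wild type (WT) mice, which were 6 of the 12 libraries of the study and were chosen by their labels alone. RNA came from the dorsal hippocampus of male mice of the mixed background 129sv/C57BL/6j at 4 to 5 months of age. The other 6 libraries, 3 WT and 3 KO, came from mice labelled as house controls, and their genotype difference is given beside the trained one. The labels name a training treatment but not the task, the time between training and dissection or the targeted allele, and do not say whether litters were shared, so p-values measure the spread between these animals. Polyadenylated RNA was sequenced and reads were counted per gene symbol. The question is which transcripts differed between the genotypes once the animals had been trained.

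Muscleblind-like proteins are zinc finger proteins that bind RNA and control which exons are kept in mature transcripts, where transcripts are polyadenylated and where they are carried in the cell. MBNL2 is the family member known for this role in adult brain, and its sequestration by expanded CUG repeats is known from myotonic dystrophy. A gene count sums over all transcript forms of a gene, so it records transcript abundance and not exon choice.

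The 6 trained libraries held 21370249 to 27427076 counts, at which 3 counts correspond to 0.109 to 0.14 CPM on total counts. CPM is the counts-per-million scale, taken below on library sizes scaled by the TMM method. The hippocampal markers were present: Wfs1, a marker of dorsal CA1, lay between 114 and 292 CPM and Prox1, which defines dentate granule neurons, between 42.8 and 191 CPM. Markers of neighbouring tissue differed between animals. The second KO library stood apart in 18 markers of striatum and septum, which summed to 2263 CPM there and to between 487 and 565 CPM in the other 5. The 19 choroid plexus markers summed to between 163 and 11967 CPM in the WT libraries and between 240.3 and 6798 CPM in the KO libraries. The 14 CA1 markers summed to higher values in all 3 KO libraries than in any WT library, while the sums of the 20 dentate markers, all 20 with a negative difference, overlapped between the groups. In tissue, fewer cells of a type and less RNA per cell cannot be told apart.

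Mbnl2 itself (mm10 chromosome 14, 120275669 to 120431697, plus strand) was counted at 360.4, 363 and 365 CPM in the WT libraries and at 509, 473 and 542 CPM in the libraries labelled KO. Every library labelled KO was thus above every WT library, with a log2 difference of 0.48 (SE 0.07) and an adjusted p of 0.128 by the quasi-likelihood test of edgeR, Benjamini-Hochberg adjusted over all genes. A count over the whole gene does not show which exons were read, and the allele is not described, so this value neither checks nor contradicts a loss of protein. Mbnl1, the closest paralog, was at 81.5, 84.1 and 86.4 CPM in WT and 117, 109.8 and 102 CPM in KO. Its groups did not overlap either, the log2 difference was 0.38 (SE 0.11) and the adjusted p in the same edgeR test was 0.5003. The authors' deposited table gave Mbnl1 an adjusted p of 0.01103 and Mbnl2 one of 2.97e-05. Mbnl3, which is rare in adult brain, was at 0.695, 0.0803 and 1.38 CPM in WT and 0, 0.138 and 0.731 CPM in KO, and 3 of the 6 libraries were at or under the floor of 3 counts.

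Of 15622 genes tested, 1 rose and 1 fell in trained KO mice by edgeR's quasi-likelihood test at an adjusted p under 0.05, which is 0.0064% of genes in each direction and 0.0128% in all. At an unadjusted p under 0.05 the count was 1008 genes (6.45%), 585 higher (3.74%) and 423 lower (2.71%). All 3 KO libraries lay above all 3 WT libraries for 1189 genes (7.61%) and below them for 996 genes (6.38%). The median log2 difference over all genes was -0.01 and 47.6% of genes were above 0.

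The gene that rose was Cxadr (mm10 chromosome 16, 78301489 to 78359774, plus strand), which encodes an immunoglobulin-type adhesion protein of cell junctions that adenoviruses and coxsackieviruses use as a receptor. It was counted at 17.8, 18.03 and 22.1 CPM in the WT libraries and at 93.99, 80.9 and 97.9 CPM in the KO libraries. The lowest KO value was more than 3 times the highest WT value. Group means were 19.3 ± 2.44 CPM in WT and 90.9 ± 8.91 CPM in KO (SD, n = 3 each), a 4.704-fold rise with a log2 change of 2.23 (SE 0.17) and an adjusted p of 0.000903 in the edgeR test. Over the edgeR and limma-voom fits and both DESeq2 fits tried, 24 in all, Cxadr passed the threshold in all 24, with log2 changes between 2.19 and 2.34. The authors' deposited table gave a log2 fold change of 2.23 and an adjusted p of 1.18e-49.

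The gene that fell was Anxa6 (mm10 chromosome 11, 54979108 to 55033445, minus strand), an annexin that binds membrane phospholipids in the presence of calcium. Its WT values were 131, 173 and 149 CPM and its KO values 71.4, 70.6 and 68.03 CPM. The KO libraries lay close together, and the second WT library was the highest of its group. The group means of 151 ± 21.5 and 70.00 ± 1.74 CPM (SD, n = 3 each) correspond to a 2.16-fold fall, a log2 change of -1.11 (SE 0.12) and an adjusted p of 0.0177 in the edgeR test. That call was less firm than that of Cxadr: Anxa6 passed in 14 of the 24 fits. On the 6 trained libraries alone the adjusted p was 0.183 by edgeR and 3.05e-14 by DESeq2. By edgeR it was between 0.0641 and 0.164 when WT library 2 or 3 or any 1 KO library of the trained groups was left out. The log2 change itself stayed between -1.19 and -0.99 throughout.

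**Figure D1:**
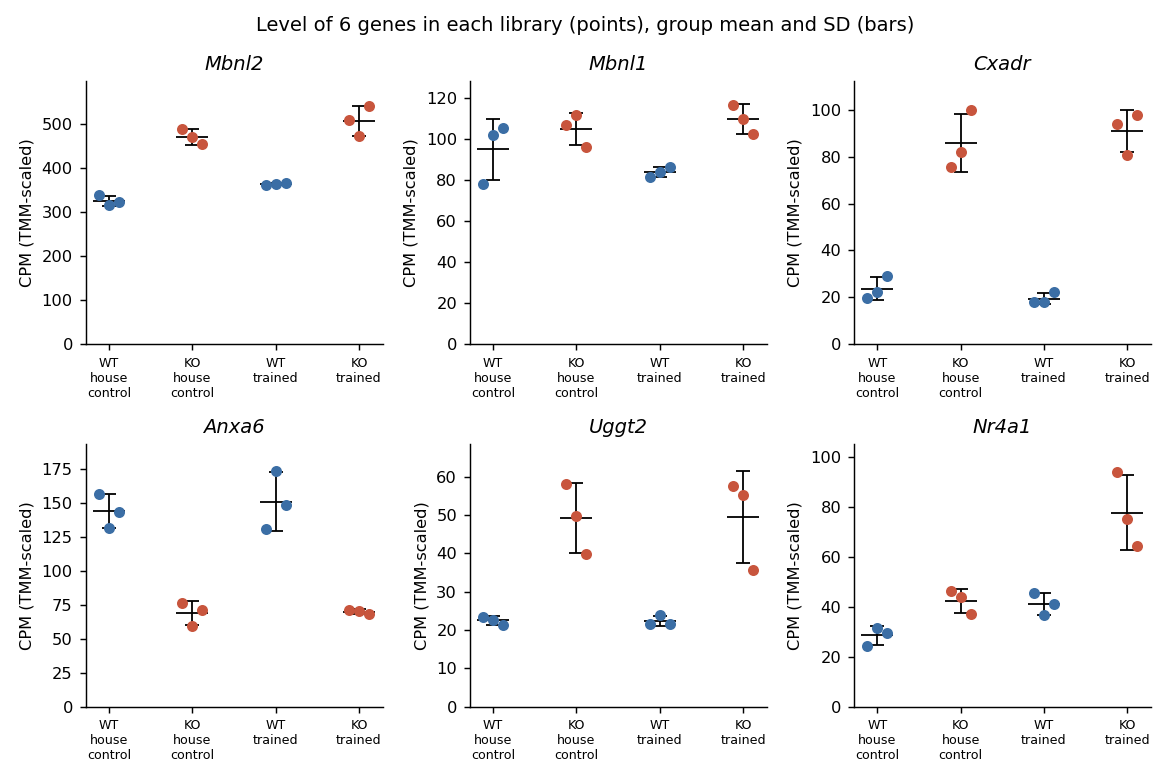
CPM (y axis, TMM-scaled) of Mbnl2, Mbnl1, Cxadr, Anxa6, Uggt2 and Nr4a1 in each library (points), with group mean and SD (bars, n = 3), for the 4 groups on the x axis. For Cxadr the 3 trained KO libraries sit between 80.9 and 97.9 CPM against 17.8 to 22.1 CPM in trained WT, and for Anxa6 between 68.0 and 71.4 CPM against 131 to 173 CPM.

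Cxadr and Anxa6 headed 12 higher and 12 lower genes with the smallest p-values among genes whose trained groups did not overlap. None of the other 22 passed the edgeR threshold, and their adjusted p-values lay between 0.128 and 0.299. What follows for them are therefore values and not calls. DESeq2, run on the same 12 libraries, gave all 24 an adjusted p under 0.05, and the authors' deposited table did so for 22, with Cdkn1b (0.0601) and Efcab7 (0.209) above it.

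Several of the higher genes act at the membrane or in its signalling. Htr2a, the serotonin 5-HT2A receptor, was at 11.8, 10.6 and 10.5 CPM in WT and 18.3, 16.5 and 20.3 CPM in KO, a log2 difference of 0.74 (SE 0.13). Jak3, a tyrosine kinase that signals from cytokine receptors, was at 4.903, 3.69 and 3.56 CPM in WT and 8.92, 8.16 and 7.899 CPM in KO, a 2.05-fold difference. The lowest KO value of each exceeded the highest WT value by more than the range of the WT group. Arhgap33, a GTPase-activating protein of dendritic spines that also sorts receptors, was at 89.03, 85.2 and 67.1 CPM in WT and 176, 222 and 157 CPM in KO, with a log2 difference of 1.20 (SE 0.23). Fgf11, an intracellular member of the fibroblast growth factor family related to partners of sodium channels, was at 14.8, 12.7 and 12.4 CPM in WT and 24.3, 27.7 and 20.4 CPM in KO.

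Another pair handles glycoproteins. Uggt2, related to the enzyme that marks misfolded glycoproteins in the endoplasmic reticulum, was at 21.6, 23.8 and 21.4 CPM in WT and 57.6, 55.1 and 35.7 CPM in KO (1.15, SE 0.18 on the log2 scale), with the third KO library lowest of its group. Galnt9, which starts O-linked glycosylation, was at 89.6, 74.03 and 77.1 CPM in WT and 127, 136 and 113 CPM in KO (0.64, SE 0.11). In the nucleus, Nr4a1, an orphan nuclear receptor induced within minutes to hours of neuronal activity, was at 45.3, 36.6 and 41.2 CPM in WT and 93.9, 74.97 and 64.1 CPM in KO (0.92, SE 0.15). Smarcd3, a subunit of the SWI/SNF chromatin remodelling complex, had the smallest difference of the 12, at 44.1, 48.3 and 44.5 CPM in WT and 57.9, 59.4 and 58.2 CPM in KO. Commd6, a COMM domain protein, was at 14.7, 16.5 and 15.01 CPM in WT and 27.4, 26.6 and 22.1 CPM in KO, and Fam205c, at a low level, at 2.66, 3.45 and 2.64 CPM in WT and 6.62, 8.11 and 4.89 CPM in KO.

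Among the lower genes, signalling through protein kinase A was represented by a regulatory subunit and an anchoring protein. Prkar1a, the type I alpha regulatory subunit, was at 739, 779 and 729 CPM in WT and 599, 564 and 561 CPM in KO, a 1.303-fold difference at a high count. Gskip, which binds both glycogen synthase kinase 3 and protein kinase A, was at 32.2, 32.5 and 31.6 CPM in WT and 23.6, 23.7 and 23.3 CPM in KO. The 2 groups of Gskip each spanned less than 1 CPM. Sdf4, a calcium-binding protein of the Golgi lumen, was at 254, 259 and 237 CPM in WT and 192, 178 and 183 CPM in KO (-0.44, SE 0.08 on the log2 scale). Efcab7, an EF-hand protein of the primary cilium, was low in both groups, at 2.21, 1.65 and 1.95 CPM in WT and 0.918, 0.8299 and 1.005 CPM in KO.

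Mitochondrial genes included Tomm34, a co-chaperone of protein import, at 119, 111 and 110.3 CPM in WT and 71.1, 61.5 and 78.6 CPM in KO (-0.69, SE 0.10), and Isca1, an assembly factor of iron-sulfur clusters, at 107, 108 and 106 CPM in WT and 85.6, 90.97 and 88.2 CPM in KO (-0.28, SE 0.06). Tomm34 had the smallest p of the 11 lower genes other than Anxa6, and Isca1 the smallest fold of the 24, 1.21. Bmp1, the metalloprotease that trims procollagens, was at 66.4, 70.4 and 62.1 CPM in WT and 40.8, 32.7 and 43.7 CPM in KO. Cdkn1b, the cell cycle inhibitor p27, was at 55.3, 53.6 and 54.4 CPM in WT and 45.3, 37.3 and 42.1 CPM in KO. Flywch1, a zinc finger protein, was at 195, 197 and 176 CPM in WT and 137, 150.1 and 129 CPM in KO. The 2 remaining genes were Scrn3, at 37.7, 37.5 and 38.9 CPM in WT and 30.3, 28.7 and 28.8 CPM in KO, and Ccdc28a, at 14.4, 15.6 and 14.2 CPM in WT and 9.38, 7.65 and 8.995 CPM in KO.

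**Figure D2:**
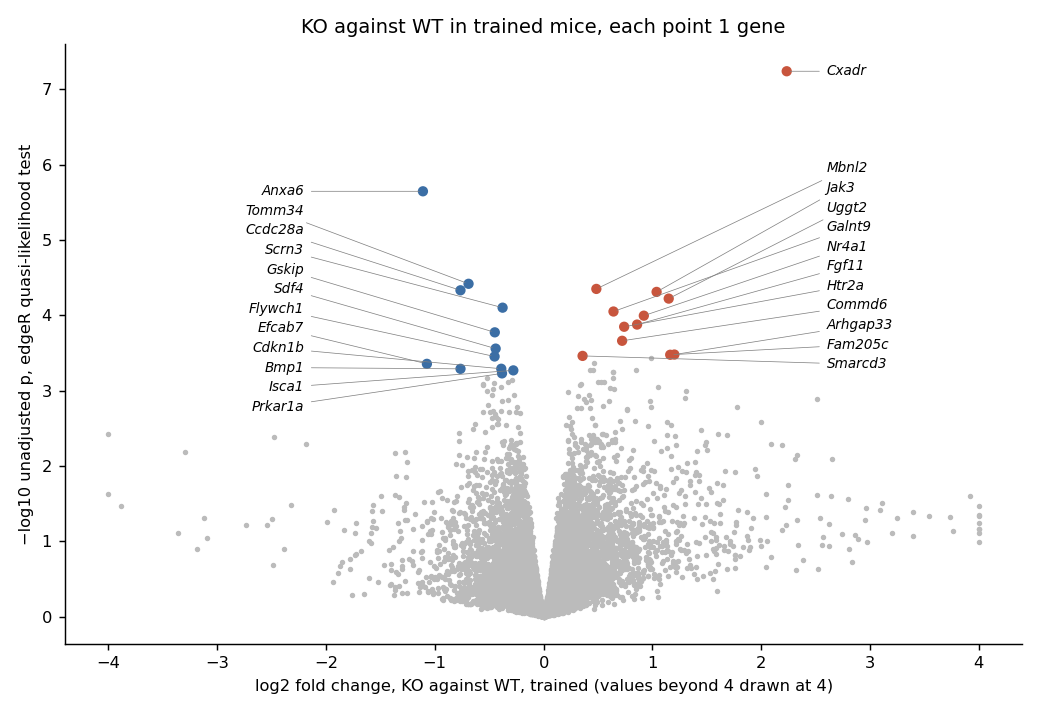
Log2 fold change of trained KO against trained WT (x axis) and −log10 of the unadjusted edgeR p (y axis) for each of 15622 genes, with the 12 higher (red) and 12 lower (blue) named genes marked. Cxadr and Anxa6 stand clear of the other 22, whose adjusted p-values lie between 0.128 and 0.299.

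House control mice, which are other animals, gave the same sign for all 24 genes. The share was 84.3% of the 2185 genes whose trained groups did not overlap and 65.5% of all genes tested. The 3 KO house control libraries lay beyond the 3 WT ones in that direction for 22 of the 24. That was so for 25.6% of those 2185 genes and 10.7% of all genes tested. Over all genes, house control KO libraries lay above WT without overlap for 6.94% and below for 6.09%. House control libraries contributed to the estimate of spread by which the 24 were ranked, so this side-by-side count is a description. Cxadr was at 19.6, 22.01 and 29.1 CPM in WT and 75.5, 82.2 and 99.8 CPM in KO house controls, a log2 difference of 1.86 (SE 0.16). Anxa6 was at 157, 132 and 144 CPM and 76.00, 59.1 and 71.3 CPM there (-1.06, SE 0.12). The trained log2 change minus the house control one was 0.37 (SE 0.23) for Cxadr, with an unadjusted edgeR interaction p of 0.129, and -0.04 (SE 0.17) for Anxa6, with a p of 0.801.

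The median size of the 24 log2 differences was 0.73 in trained and 0.51 in house control mice, and 18 of the 24 were larger in trained mice, the comparison that chose them. The interaction of genotype and training, which tests whether the genotype difference itself differed, called 0 genes of 15622 (0%) by edgeR's quasi-likelihood test, and 235 (1.5%) had an unadjusted p under 0.05. DESeq2 called 0 as well, with 261 at an unadjusted p under 0.05. Of the 24 genes, 3 were among the 235: Jak3 with an interaction of 0.59 (SE 0.22), Ccdc28a with -0.55 (SE 0.16) and Cdkn1b with -0.30 (SE 0.11). Cdkn1b was at 53.5, 51.4 and 54.7 CPM in WT and 46.3, 51.5 and 52.6 CPM in KO house controls, where the groups overlapped.

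The 5 genes with the smallest interaction p at a mean of at least 1 CPM were Atp13a4, Wtip, Mylk, Pts and Eln, each with an adjusted p of 0.9997 in the edgeR interaction test. Their interaction values were 1.01 (SE 0.22), 0.77 (SE 0.20), 0.65 (SE 0.17), 0.99 (SE 0.26) and 1.39 (SE 0.39) in that order. Pts, which makes a precursor of the tetrahydrobiopterin cofactor of monoamine synthesis, was at 10.2, 10.04 and 9.498 CPM in trained WT and 12.3, 15.3 and 12.7 CPM in trained KO mice, and at 12.4, 18.2 and 15.2 CPM in WT and 12.97, 10.4 and 7.96 CPM in KO house controls. Eln, the elastin gene, was at 5.15, 3.25 and 6.28 CPM and 5.47, 8.21 and 6.21 CPM in the trained groups and 14.6, 9.57 and 8.67 CPM and 5.02, 5.22 and 6.66 CPM in house controls. For Wtip and Mylk the trained difference was small, 0.14 (SE 0.14) and 0.08 (SE 0.12), and the house control difference was -0.63 (SE 0.14) and -0.57 (SE 0.12).

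**Figure D3:**
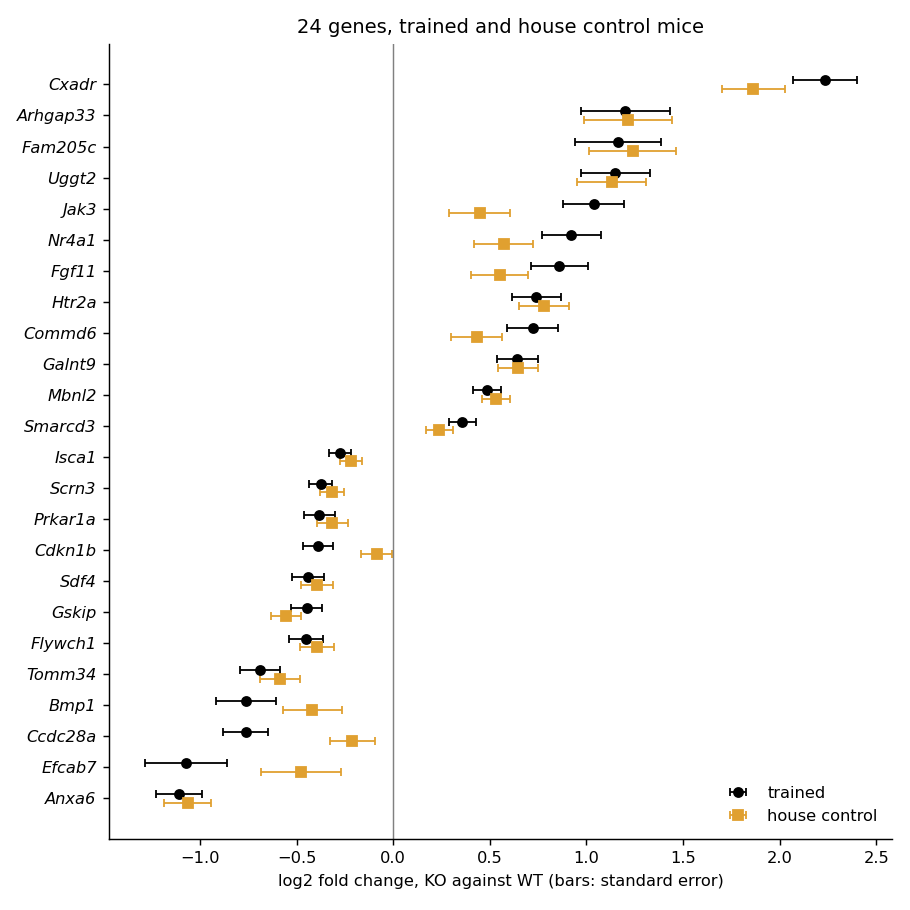
Log2 fold change of KO against WT (x axis, bars are the standard error) for the 24 named genes in trained mice (black circles) and house control mice (yellow squares). All 24 pairs lie on the same side of 0, and Jak3, Ccdc28a and Cdkn1b show the widest separation relative to their error.

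Of the 24 genes, 5 lie on chromosome 14, which carries Mbnl2: Mbnl2, Uggt2 at a distance of 1.2 Mb, Commd6 at 18.6 Mb, Htr2a at 45.6 Mb and Bmp1 at 49.8 Mb. On that chromosome 6 of 535 tested genes had an unadjusted edgeR p under 0.001, against 41 of 14502 elsewhere. The sixth is Dzip1, a zinc finger protein of the ciliary base at 1.35 Mb, which was passed over by the rank limit and is named after its values were seen. Dzip1 was at 63.4, 57.6 and 48.6 CPM in WT and 137, 113 and 85.2 CPM in KO, with a log2 difference of 0.98 (SE 0.19). Of 17 tested genes within 2 Mb of Mbnl2, Mbnl2 included, 6 had trained groups that did not overlap, against 14% of all genes. They are Mbnl2, Dzip1, Uggt2 and, also named after their values were seen, Hs6st3 (0.61, SE 0.22), Clybl (0.32, SE 0.20) and Stk24 (-0.27, SE 0.10). The first 5 were higher in KO and Stk24 lower, while the other 11 neighbours overlapped between the groups.

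The number of genes called depended on the tool. The authors' deposited table for the trained comparison lists 14626 genes with an adjusted p, of which 122 (0.834%) were under 0.05, 84 higher and 38 lower in KO. DESeq2 on all 12 libraries called 67 higher and 39 lower (0.679% of 15622), of which 68 were also called in the authors' deposited table, a share of 55.7% of the latter and 64.2% of the former. The calls in the authors' deposited table come from these same trained libraries, so what follows is a description. All 122 genes called there had trained CPM values that did not overlap, against 14% of all genes tested. An unadjusted edgeR p under 0.05 was reached by 121 of them, against 6.45% of all genes tested. The median size of the 122 was 1.52-fold, and 24 exceeded 2-fold. In house controls 120 of the 122 had the same sign and 71 had groups that did not overlap in that direction. Of the 2185 genes whose trained groups did not overlap, 84.3% had the same sign there and 25.6% did not overlap in that direction.

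Genes switched on by neuronal activity were described as 2 lists. Their products follow calcium entry and synaptic input: rapid transcription factors first, and effectors that act at synapses later. None of the rapid genes passed the edgeR threshold. Of 35 rapid genes, 8 (22.9%) had all KO libraries above all WT libraries, against 7.61% of all genes, and 0 had them below, against 6.38%. The median log2 difference was 0.18, 24 of 35 were above 0, and the median ran from 0.14 to 0.25 as each library was left out. In house controls the median was 0.05 and 22 of 35 were above 0.

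Among them Egr1, a zinc finger transcription factor, was at 189.8, 137 and 155 CPM in WT and 260.0, 357 and 229.7 CPM in KO (0.81, SE 0.30). Nr4a2, a relative of Nr4a1, was at 42.2, 40.4 and 32.4 CPM in WT and 51.9, 83.8 and 50.2 CPM in KO (0.69, SE 0.27, and 0.43 without the second KO library). Dusp6, a phosphatase that switches off ERK, was at 61.9, 59.98 and 54.8 CPM in WT and 86.4, 65.7 and 74.7 CPM in KO (0.36, SE 0.15). For all 3 the KO libraries were above the WT libraries. In house controls their groups overlapped, with log2 differences of 0.32 (SE 0.30), 0.54 (SE 0.27) and 0.29 (SE 0.15) in the same order. Nr4a1 had 0.57 (SE 0.15) in house controls, without overlap. Fos and Arc, textbook members outside the naming rule, are given as well. Fos was at 13.6, 14.98 and 10.2 CPM in WT and 19.7, 19.1 and 20.5 CPM in KO, without overlap, and Arc at 117, 126 and 74.99 CPM and 185, 125 and 156 CPM, with overlap. Their unadjusted edgeR p-values were 0.144 and 0.0487. In WT house controls Fos ranged from 3.01 to 10.7 CPM.

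Many rapid genes carry cyclic AMP response elements, the binding sites of CREB, in their promoters. The 250 bases upstream of the start are shown for Nr4a1 and Nr4a2, the nuclear receptor genes of the list with groups that did not overlap, chosen because both hold several copies of the core of that element. Sequences are from RefSeq on GRCm38.p6, 5′ to 3′ on the gene's strand. Capitals mark TGCGTCA in Nr4a1 and CGTCA, or TGACG where it lies on the other strand, in Nr4a2.
Nr4a1 chr15:101266596-101266845, plus strand: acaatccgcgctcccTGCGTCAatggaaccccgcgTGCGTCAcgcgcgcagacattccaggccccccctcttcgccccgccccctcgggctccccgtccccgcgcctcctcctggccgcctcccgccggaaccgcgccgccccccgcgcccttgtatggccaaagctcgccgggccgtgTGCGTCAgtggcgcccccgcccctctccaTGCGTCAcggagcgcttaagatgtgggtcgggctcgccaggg
Nr4a2 chr2:57124004-57124253, minus strand: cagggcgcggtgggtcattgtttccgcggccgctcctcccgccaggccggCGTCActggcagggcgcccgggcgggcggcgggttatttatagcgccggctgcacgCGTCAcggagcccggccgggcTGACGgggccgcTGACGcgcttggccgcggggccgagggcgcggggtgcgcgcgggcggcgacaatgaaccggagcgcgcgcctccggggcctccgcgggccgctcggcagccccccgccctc

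The Nr4a1 window holds TGCGTCA 4 times and the Nr4a2 window CGTCA 4 times over both strands. Neither window holds the full palindrome TGACGTCA. The window of Dusp6, a rapid gene whose groups did not overlap either, holds 0 copies of either motif or of that palindrome, and is not shown. TGCGTCA contains CGTCA, so every match of the longer motif is also one of the shorter. Over all 32851 windows of this length in the promoter table, 17.8% hold CGTCA on either strand, 1.75% hold TGCGTCA and 1.55% hold the palindrome TGACGTCA. Of the 35 rapid genes 27 had 37 windows in the table, and 73.0% of these hold CGTCA, 8.11% TGCGTCA and 10.8% TGACGTCA. A match of letters is a description of the sequence and not of binding in these animals.

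Of 40 delayed effectors, 10 (25%) were above and 2 (5%) below in all KO libraries, against 7.61% and 6.38% of all genes. The median was 0.15 in trained and 0.18 in house control mice. Nptx2, a pentraxin that clusters AMPA receptors, was at 61.9, 49.7 and 51.5 CPM in WT and 73.6, 69.8 and 77.7 CPM in KO. Sorcs3, a sorting receptor of the postsynaptic membrane, was at 44.6, 32.4 and 36.7 CPM in WT and 60.9, 63.5 and 55.2 CPM in KO. Rasl11b, a small GTPase-like protein, had the smallest p of the list, at 58.96, 57.5 and 46.8 CPM in WT and 78.3, 69.1 and 78.2 CPM in KO (0.47, SE 0.09). Homer1, the scaffold of metabotropic glutamate receptors, was at 131, 121 and 111 CPM in WT and 159, 177 and 147 CPM in KO. The groups of all 4 did not overlap, and the house control log2 differences were 0.86 (SE 0.13), 0.37 (SE 0.18), 0.66 (SE 0.09) and 0.35 (SE 0.15) in the same order.

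Ion channels set how neurons fire. Of 18 voltage-gated calcium channel genes 16 were above 0, with a median of 0.15. It ran from 0.07 to 0.19 with each library left out, lowest without the first KO library, and was 0.31 in house controls. Without overlap 5 (27.8%) were above and 0 below, against 7.61% and 6.38% of all genes. The largest differences were those of a pair of T-type channels, which open at low voltage and support burst firing. Cacna1i was at 50.1, 52.4 and 45.1 CPM in WT and 90.3, 128 and 74.2 CPM in KO (0.99, SE 0.23), and Cacna1g at 37.2, 24.2 and 32.98 CPM in WT and 51.4, 57.8 and 45.5 CPM in KO (0.71, SE 0.24). The accessory subunit gene Cacnb2 was at 65.05, 65.2 and 65.9 CPM in WT and 82.8, 69.9 and 80.6 CPM in KO, a narrower gap. Cacng3, whose product also escorts AMPA receptors, was at 34.6, 41.2 and 35.2 CPM in WT and 51.4, 65.01 and 45.4 CPM in KO.

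Of 46 potassium channel genes 8 (17.4%) were above and 2 (4.35%) below without overlap, against 7.61% and 6.38% of all genes. The median of 0.08 was 0.14 without the second WT library, and in house controls the median was 0.18. Kcnab1, a beta subunit that speeds inactivation of voltage-gated channels, was at 154, 152 and 136 CPM in WT and 216, 215 and 193 CPM in KO (0.50, SE 0.11). Kcnn1, a small-conductance channel opened by calcium, was at 15.1, 15.02 and 16.1 CPM in WT and 19.02, 20.8 and 18.9 CPM in KO (0.35, SE 0.08). Kcnv1, a silent subunit that joins other channels, was at 65.99, 65.5 and 64.6 CPM in WT and 83.4, 96.5 and 95.2 CPM in KO (0.49, SE 0.15). All 3 genes were higher in every KO library. Of 13 sodium channel genes 1 (7.69%) was above and 1 (7.69%) below without overlap, near the shares of all genes. Of 17 HCN and chloride channel genes 5 (29.4%) were above and 0 below, against 7.61% and 6.38% of all genes. The median of 0.10 was 0.02 without the first KO library and 0.16 without the third WT library. Clcn2 was at 37.96, 30.03 and 33.4 CPM in WT and 48.3, 45.6 and 45.1 CPM in KO.

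Receptors for fast transmission had small median differences in trained mice. In house controls the medians were 0.28 for AMPA and kainate, 0.26 for NMDA and 0.21 for GABA receptor genes. The trained ones were 0.15, 0.13 and 0.08. Of 20 AMPA and kainate receptor genes with auxiliary subunits 19 were above 0, the median was 0.15 and 4 (20%) were above without overlap, against 7.61% of all genes, Cacng3 and the kainate subunit Grik2 (53.2, 51.1 and 37.6 CPM in WT and 65.2, 65.7 and 72.3 CPM in KO) among them. Of 7 NMDA receptor genes 2 (28.6%) were above without overlap, and the subunit Grin2d had the smallest p, at 14.1, 13.6 and 12.4 CPM in WT and 22.2, 18.7 and 19.7 CPM in KO (0.60, SE 0.14). Of 16 GABA receptor genes 3 (18.8%) were above, and 0 NMDA and 0 GABA receptor genes were below. The shares of all genes were 7.61% above and 6.38% below. Gabra3, an alpha subunit, was at 19.04, 13.4 and 20.3 CPM in WT and 31.5, 67.8 and 28.2 CPM in KO, with the second KO library far above the others. Its log2 difference of 1.27 (SE 0.42) was 0.77 without that library. Grm2, a metabotropic glutamate receptor, was lower, at 78.00, 132 and 85.5 CPM in WT and 74.3, 34.7 and 59.2 CPM in KO, with -0.54 left of its -0.81 (SE 0.38) without the second WT library.

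Modulatory receptors had larger values. Of 23 tested serotonin, dopamine and noradrenaline receptor genes, 20 were above 0. Without overlap 7 (30.4%) were above and 0 below, against 7.61% and 6.38% of all genes. The median was 0.24 in house controls. In trained mice the median of 0.49 was 0.23 without the second KO library, the one rich in striatal markers. Drd2, the dopamine D2 receptor of striatal neurons, belongs to both lists and was at 1.76, 1.53 and 2.64 CPM in WT and 1.49, 32.1 and 1.74 CPM in KO. The serotonin receptors besides Htr2a were Htr1a at 33.7, 27.5 and 23.5 CPM in WT and 58.97, 45.6 and 54.6 CPM in KO, Htr1b at 2.45, 0.843 and 0.957 CPM and 3.94, 5.21 and 2.74 CPM, and Htr1f at 2.74, 2.01 and 2.57 CPM and 3.06, 4.24 and 4.38 CPM. For all 3 each KO value exceeded every WT value. Htr1a is also 1 of the CA1 markers. Of 12 acetylcholine receptor genes 10 were above 0, with a median of 0.33 that ran from 0.17 without the second WT library to 0.60 without the third. In house controls that median was 0.40. Chrna5, a nicotinic subunit, was at 3.19, 1.32 and 2.57 CPM in WT and 3.83, 6.32 and 5.16 CPM in KO.

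**Figure D4:**
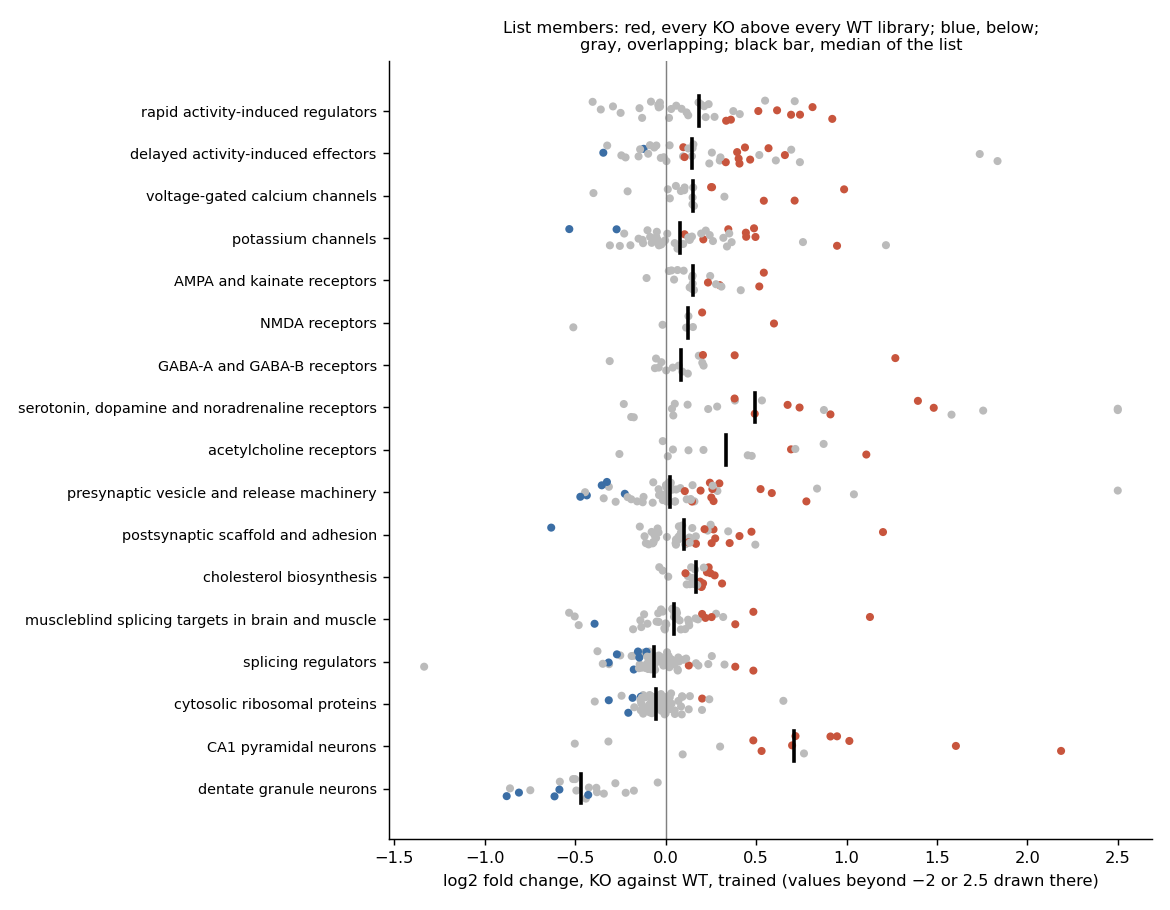
Log2 fold change of trained KO against trained WT (x axis) for the members of 17 lists (rows, each point 1 gene), red where every KO library was above every WT library, blue where below, gray where the groups overlapped, with the list median as a black bar. The medians of CA1 markers (0.71) and dentate markers (-0.47) lie furthest from 0 on either side, and the ribosomal protein genes cluster around -0.05.

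Synaptic machinery was mixed. Of 55 presynaptic genes 11 (20%) were above and 5 (9.09%) below without overlap, against 7.61% and 6.38% of all genes. The median of 0.03 turned to -0.02 without the third WT library and was 0.12 without the second KO library. In house controls it was 0.27. Unc13b, a priming factor of vesicles, was at 39.1, 36.1 and 33.8 CPM in WT and 43.1, 41.96 and 44.8 CPM in KO (0.25, SE 0.07). Syt12, a synaptotagmin, was at 35.6, 27.9 and 32.6 CPM in WT and 43.5, 50.1 and 44.7 CPM in KO, and the active zone gene Rims4 at 7.396, 7.47 and 6.36 CPM in WT and 12.3, 15.2 and 8.904 CPM in KO. These 3 were higher in every KO library. Napa, which helps to take SNARE complexes apart, was lower in each, at 273, 344 and 280.1 CPM in WT and 233, 219 and 249.8 CPM in KO (-0.35, SE 0.12, and -0.23 without the second WT library). Of 46 postsynaptic genes 10 (21.7%) were above and 1 (2.17%) below without overlap, and 33 had a log2 difference above 0. The median was 0.10 in trained and 0.22 in house control mice, where 45 of 46 were above 0. Arhgap33 and Homer1 led those above without overlap. The adhesion gene Lrrtm2 was among them, at 74.4, 81.9 and 77.7 CPM in WT and 91.3, 102 and 89.2 CPM in KO.

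In calcium and cyclic nucleotide signalling, 10 of 47 genes (21.3%) were above without overlap and Prkar1a was the 1 (2.13%) below. The shares of all genes were 7.61% and 6.38%. Pde1a, a phosphodiesterase that calcium and calmodulin activate, was at 161, 126 and 123 CPM in WT and 196, 236 and 207 CPM in KO (0.64, SE 0.13). Pde2a, a phosphodiesterase that cyclic GMP stimulates, was at 381, 288 and 314 CPM in WT and 459, 485 and 414 CPM in KO (0.47, SE 0.13). Camk2n2, an inhibitor of calcium/calmodulin-dependent kinase II, was at 45.9, 52.7 and 49.1 CPM in WT and 63.1, 67.04 and 59.3 CPM in KO. The 3 genes had adjusted p-values of 0.298, 0.5003 and 0.643 by edgeR's quasi-likelihood test, so none was called, while the authors' deposited table gave Pde1a an adjusted p of 0.002702. Slc8a1, the sodium-calcium exchanger of the plasma membrane, was at 352, 273 and 328 CPM in WT and 505, 447 and 499 CPM in KO (0.61, SE 0.13). Atp2b4, a calcium pump, was at 46.2, 58.2 and 36.8 CPM in WT and 72.5, 258 and 68.2 CPM in KO, where the second KO library carried much of the log2 difference of 1.495 (SE 0.61), which was 0.59 without it.

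Transcripts known as splicing targets of muscleblind proteins can be described here by abundance only. Of 41 tested, 6 (14.6%, Mbnl1 and Mbnl2 included) were above and 1 (2.44%) below without overlap, against 7.61% and 6.38% of all genes. The median of 0.05 was 0.02 without the first KO library and 0.08 without the second WT library. Clcn1, the chloride channel whose missplicing causes myotonia in muscle, was at 0.981, 0.883 and 0.919 CPM in WT and 2.33, 2.35 and 1.42 CPM in KO (1.13, SE 0.31), a low level in hippocampus. Csnk1d, a kinase that acts on clock proteins, was the 1 below, at 183, 185 and 180.1 CPM in WT and 149, 129 and 140.1 CPM in KO (-0.39, SE 0.09). Of 66 splicing regulators 22 were above 0, with a median of -0.06 that was -0.01 without the second WT library. Without overlap 3 (4.55%) lay above, Mbnl1 and Mbnl2 included, and 7 (10.6%) below, against the same shares of all genes. Hnrnpm was 1 of the 7, at 139, 158 and 136 CPM in WT and 123, 127 and 109.6 CPM in KO.

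The families of the 2 called genes were mixed. Of 29 tested junction and adhesion genes, Cxadr itself included, 4 (13.8%, Cxadr among them) were above and 3 (10.3%) below without overlap. The shares of all genes were 7.61% and 6.38%. The median was -0.03, from -0.14 to 0.03 with each library left out. Ocln, the tight junction protein occludin, was lower, at 16.02, 17.6 and 23.2 CPM in WT and 12.3, 12.9 and 13.4 CPM in KO, and so was the polarity gene Pard3, at 29.4, 31.5 and 34.2 CPM in WT and 26.5, 29.00 and 23.4 CPM in KO. Their unadjusted edgeR p-values were 0.0267 and 0.0308. Of 24 annexins, copines and other proteins that bind membranes with calcium, Anxa6 included, 4 (16.7%) were above and 3 (12.5%, Anxa6 among them) below. Cpne7, a copine, was at 41.8, 26.5 and 35.5 CPM in WT and 92.95, 61.97 and 60.4 CPM in KO (1.05, SE 0.23), and Cpne8 at 20.1, 10.2 and 12.9 CPM in WT and 28.7, 20.1 and 32.5 CPM in KO (0.91, SE 0.30).

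In the Wnt pathway, Apc, the scaffold of the complex that degrades beta-catenin, was at 414, 449 and 405 CPM in WT and 602, 518 and 588 CPM in KO (0.43, SE 0.09). Gskip, of the same pathway, was lower as given above. Over the 42 genes of the pathway 4 (9.52%) were above and 5 (11.9%) below without overlap, against 7.61% and 6.38% of all genes. In the ERK cascade, the kinases Map2k1 and Mapk3 were lower, at 385, 498 and 367 CPM in WT and 303, 241 and 301 CPM in KO for the former (-0.57, SE 0.18). Mapk3 was at 132, 193 and 146 CPM in WT and 122, 120.0 and 123 CPM in KO (-0.37, SE 0.13, and -0.18 without the second WT library). Hras, the upstream GTPase, was higher at 102, 104 and 93.3 CPM in WT and 115, 124 and 109 CPM in KO. Over the 41 genes of this cascade 9 (21.95%) were above and 2 (4.88%) below without overlap, against 7.61% and 6.38% of all genes. Of 23 tested glucocorticoid and stress-responsive genes 18 were above 0, with a median of 0.16. Without overlap 4 (17.4%) were above and 1 (4.35%) below, against 7.61% and 6.38% of all genes. The 1 below was Bcl6, a repressor, at 87.1, 102 and 79.97 CPM in WT and 64.3, 42.5 and 63.01 CPM in KO (-0.66, SE 0.27).

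Cholesterol synthesis showed small differences in 1 direction. Of 24 tested genes 22 were above 0, 10 (41.7%) were above without overlap against 7.61% of all genes, and 0 were below. An unadjusted p under 0.05 was reached by 7 of them, and none had an adjusted edgeR p under 0.05. The median was 0.17, from 0.14 to 0.24 with each library left out and 0.09 in house controls. Msmo1, a sterol oxidase, was at 69.1, 72.3 and 74.99 CPM in WT and 77.03, 86.3 and 86.4 CPM in KO, and the mevalonate pathway kinase Pmvk at 18.6, 21.2 and 20.6 CPM in WT and 22.8, 24.8 and 23.7 CPM in KO. Acat2, the cytosolic acetyl-CoA acetyltransferase, was at 27.2, 31.4 and 28.8 CPM in WT and 32.9, 41.2 and 34.4 CPM in KO. For these 3 genes every KO library was above every WT library.

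Housekeeping and some other lists had trained medians between -0.05 and 0.08, given here with their range over single libraries left out. Of 76 cytosolic ribosomal protein genes 20 were above 0, the median was -0.05 (-0.10 to 0.01), and Rplp0 was at 110.2, 95.7 and 113 CPM in WT and 82.8, 87.5 and 86.3 CPM in KO. Nuclear-encoded genes of oxidative phosphorylation had a median of -0.01 over 75 (-0.04 to 0.02), with Sdha, a subunit of succinate dehydrogenase, at 408, 409.8 and 391 CPM in WT and 358, 358 and 369 CPM in KO. Mitochondrial import genes, Tomm34 included, had a median of -0.02 over 27 (-0.04 to 0.01). Heat shock and unfolded protein response genes had a median of -0.03 over 37 (-0.04 to 0.02), clock genes 0.03 over 23 (0.00 to 0.12), perineuronal net genes -0.02 over 32 (-0.02 to 0.12) and interferon response genes 0.08 over 33 (-0.14 to 0.21). Ddx58, the RNA sensor RIG-I, had the smallest p of the interferon list, at 6.78, 6.95 and 6.63 CPM in WT and 4.55, 4.75 and 5.16 CPM in KO (-0.49, SE 0.12). In house controls the ribosomal median was -0.12, with 4 of 76 genes above 0. The oxidative phosphorylation median was -0.07 there, with 10 of 75 above 0.

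Markers of the hippocampal fields were read in the same libraries. The 14 CA1 markers summed to 1006, 581 and 814 CPM in WT and 1286, 1227 and 1207 CPM in KO, and 9 of 14 (64.3%) were above without overlap, against 7.61% of all genes. Their median log2 difference was 0.71, and 0.50 without the second WT library. In house controls it was 0.37, with 10 of 14 above 0. Nov was at 20.96, 8.71 and 16.8 CPM in WT and 47.9, 58.6 and 34.7 CPM in KO (1.605, SE 0.43), Mpped1 at 129, 64.6 and 87.5 CPM and 193, 217 and 159 CPM, and the potassium channel gene Kcnh7, counted in both lists, at 10.3, 6.38 and 11.6 CPM and 17.8, 23.9 and 12.8 CPM. None of these 3 had an adjusted edgeR p under 0.05, while the authors' deposited table gave Nov an adjusted p of 0.000436. The 20 dentate markers summed to 2153, 3390.4 and 2308 CPM in WT and 2214, 1471 and 1918 CPM in KO, and 5 of 20 (25%) were below without overlap, against 6.38% of all genes. Their median of -0.47 was -0.21 without the second WT library. In house controls it was -0.33, with 4 of 20 above 0. Prox1 was at 104, 191 and 115 CPM in WT and 105, 42.8 and 77.6 CPM in KO, and Ahcyl2 at 358, 457 and 404 CPM and 332, 261 and 313 CPM.

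The CA1 and dentate medians thus had opposite signs beside the receptor, channel and activity-induced lists above, and their part in those results was not tested. CA3 markers had a median of 0.36 in house controls. In trained mice it was -0.11 over 13, turned to 0.11 without the second KO library and was -0.18 without the third. GABAergic interneuron markers had 0.10 over 20 (from 0.05 to 0.18 with each library left out), astrocyte markers -0.05 over 15 (-0.12 to 0.02) and microglia markers -0.02 over 15 (-0.08 to 0.05). Of markers of neighbouring tissue, the 18 for striatum and septum had a median of 1.66 that became -0.15 without the second KO library, and the 18 for neocortex 0.38 and 0.02. Adora2a, an adenosine receptor of striatal neurons, was at 2.04, 1.81 and 2.07 CPM in WT and 1.88, 76.9 and 1.74 CPM in KO. Cplx3, a complexin of deep cortical layers, was at 0.449, 0.723 and 1.42 CPM in WT and 0.918, 37.5 and 1.19 CPM in KO. In both the second KO library alone was high. Choroid plexus markers had a median of -0.69 that turned to 0.46 without the third WT library and was -1.39 without the second KO library, and groups that overlapped for all 19, with Ttr, the transthyretin gene, at 2871, 14.5 and 6922 CPM in WT and 23.2, 4256 and 2293 CPM in KO. The 3 blood markers that passed the filter summed to between 4.52 and 7.12 CPM.

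Without the second KO library, Cxadr had a log2 change of 2.32 and an adjusted p of 0.00352 by edgeR. Anxa6 had a log2 difference of -1.10 there and was not called, with an adjusted p of 0.146.

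**Figure D5:**
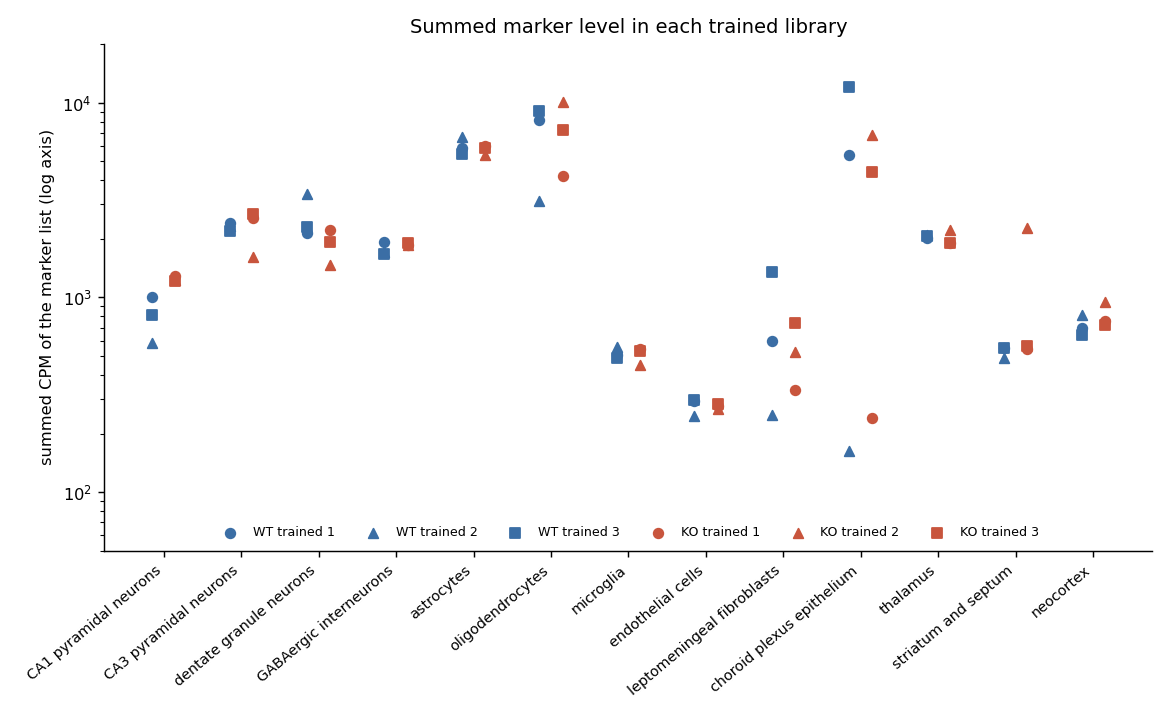
Summed CPM of marker lists (y axis, log scale) in each trained library, WT in blue and KO in red, with symbols for the library number within a group. The 3 KO sums for CA1 lie above the 3 WT sums, the second KO library stands apart for striatum and septum at 2263 CPM, and choroid plexus sums spread over 163 to 11967 CPM in groups that overlap.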

How the data were processed

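Column-purified RNA went through poly(A) selection and an NEBNext Ultra II library kit, per the labels' protocols. The submitters' processing notes list mm10 as the build and, as tools, DESeq2 1.18.1, HTSeq 0.9.1, TopHat2 2.1.1, Bowtie2 2.3.4.2 and cutadapt 1.18. The authors deposited raw counts for 24421 gene symbols. Whether counting used strand is not stated in those sources, so reads of overlapping, antisense or near-identical genes may be mixed. The authors' deposited table for trained mice, per the file headers, lists for 24394 genes a mean normalized signal, the log2 fold change and its error, a score for the test, and raw and adjusted p-values.

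With edgeR 4.0.16 in R 4.3.3, filterByExpr (minimum count 10, minimum total 15) left 15622 genes, scaled by TMM. A single robust quasi-likelihood model of 4 group means over 12 libraries left 8 residual degrees of freedom. Benjamini-Hochberg adjustment covered all genes, with a threshold of 0.05, and standard errors were derived from the F statistics. Floors of 3 counts cover counting error only. The test was tried on simulated counts first.

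The text names the 3 Mbnl genes, the called genes, 12 higher and 12 lower genes with the smallest p (mean of 1 CPM or more, groups apart), at most 4 genes of smallest p per list and 5 by interaction p, passing over predicted genes. Dzip1, Hs6st3, Clybl, Stk24, Fos, Arc, Wfs1, Prox1, Ttr, Drd2 and Adora2a are named outside this rule. Some genes the rule picked are not reported here. Members and the 52 lists (31 pathway, 21 marker) were chosen with earlier results of these data known. Coordinates came from GENCODE on mm10 (96.3% of tested symbols matched) and promoters from RefSeq. Animal numbers form 2 series, which put 2 libraries and 1 library in each group. Alternatives were DESeq2 1.42.0, limma-voom (limma 3.58.1), trained libraries alone, median-of-ratios scaling, no filter, no robust step, series as covariate, the first series alone and every library left out in turn. After seeing the data, fits without the 3 striatum-rich libraries and without the second trained WT and KO libraries were added. Replicates were never identical, with chi-square per degree of freedom from 14.9 to 105.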

Additional observations from a re-analysis of the deposited data

Results flagged for a closer look

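Atp13a4, which encodes a cation-transporting ATPase of internal membranes, had genotype groups that did not overlap in either condition but in opposite directions. In trained mice it was at 9.48, 9.796 and 8.35 CPM in WT and 15.2, 14.9 and 10.8 CPM in KO, with a log2 difference of 0.57 (SE 0.15). In house controls it was at 17.9, 18.1 and 14.5 CPM in WT and 13.2, 10.7 and 13.3 CPM in KO, with a log2 difference of -0.44 (SE 0.15). The interaction was 1.01 (SE 0.22) on the log2 scale. Its unadjusted p was 0.00079, the smallest of the named genes, and its adjusted p over 15622 genes was 0.9997 by edgeR's quasi-likelihood test, so the difference between conditions did not pass.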

How the results depend on the processing

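Cxadr passed the threshold in all 23 alternatives, with adjusted p-values up to 0.0429 (without the second KO and second WT trained libraries), and none of the 24 named genes changed sign in any of the 23. The count of genes higher was 1 by edgeR's quasi-likelihood test, 67 by DESeq2 on 12 libraries, 97 by DESeq2 on the 6 trained libraries and 3 with animal series as a covariate, where Uggt2 and Dzip1 joined Cxadr. It ran from 1 to 2 as each library was left out, 2 without the third trained KO library, where Uggt2 joined. The count of genes lower was 1 by edgeR, 39 and 43 by the 2 DESeq2 fits, and 0 with the 6 trained libraries alone, with the first animal series alone, without the striatum-rich libraries and without the second KO and WT trained libraries. It ran from 0 to 1 as each library was left out. It was 0 without WT trained library 2 or 3, any trained KO library, or the third KO house control library, where the adjusted p of Anxa6 was 0.0506. In the first animal series alone, 2 libraries a group, Anxa6 had a log2 change of -1.10 and an adjusted p of 1.00, and the second series, with 1 library a group, gives no test. The interaction called 0 genes in every edgeR, DESeq2 and limma-voom fit that had house controls, with 143 to 851 genes at an unadjusted p under 0.05. The cause of the changed counts was not tested. In fits that leave libraries out, having fewer libraries cannot be told apart from which animals were left out. Among marker genes, Ttr had log2 values of 0.56 in the first series and from -1.49 to 0.60 as each library was left out. Adora2a ran from -0.12 to 4.33 and Drd2 from -0.28 to 3.09 over single libraries left out. Adora2a was at -0.13 and Drd2 at -0.29 without the striatum-rich libraries, and at -0.18 and -0.45 without the second KO and WT libraries. Of the list medians recomputed, 78 moved by more than the spread within groups and 1118 did not. Depth limited Mbnl3, with 3 of 6 trained libraries at or under 3 counts. No paired analysis was possible because replicate numbers only follow accession order and pair no animals.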

Other observations

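Vascular and meningeal genes gave different list medians in the 2 conditions. The 17 leptomeningeal fibroblast markers had a median log2 difference of -0.15 in trained and -1.14 in house control mice, the 12 mural cell markers 0.10 and -0.49, and the 14 endothelial markers 0.02 and -0.36. The 33 interferon response genes had a median of -0.43 in house controls, with 19 above 0 in trained and 1 above 0 in house control mice. Summed leptomeningeal markers lay between 1431 and 1998 CPM in WT house controls, 259.9 and 820.3 CPM in KO house controls, 249.8 and 1347 CPM in trained WT and 335 and 741 CPM in trained KO mice. With single libraries left out the trained medians changed sign, running from -0.62 to 0.29 for leptomeningeal, -0.02 to 0.23 for mural and -0.09 to 0.11 for endothelial markers. A difference of list medians between conditions was not tested.

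Of 18 thalamic markers 1 (5.56%) was above and 2 (11.1%) below without overlap in trained mice. Of 15 microglia markers 1 (6.67%) was above and 1 (6.67%) below, against 7.61% and 6.38% of all genes. Those below were Prkcd, Ntng1 and Trem2. Prkcd, a protein kinase C of thalamic relay neurons, was at 119, 94.4 and 126 CPM in WT and 51.5, 17.5 and 92.7 CPM in KO, with a log2 difference of -1.07 (SE 0.49) that was -0.64 without the second and -1.70 without the third KO library. Ntng1, a netrin-G of the same neurons, was at 34.8, 48.98 and 51.4 CPM in WT and 29.5, 17.7 and 30.2 CPM in KO (-0.80, SE 0.32). Of the 18 thalamic markers 13 were below 0, with a median of -0.22. That median ran from -0.37 to 0.11 with each library left out. The 18 summed to between 2027 and 2090.4 CPM in WT and 1897 and 2229 CPM in KO. A sum follows its most abundant members, so it does not show whether thalamic content was equal. Trem2, a lipid receptor of microglia, was at 8.01, 8.75 and 6.55 CPM in WT and 6.28, 4.89 and 6.16 CPM in KO (-0.43, SE 0.17), and the 15 microglia markers had a median of -0.02. Kcnq5, a potassium channel gene on the CA3 list, was at 114, 99.2 and 101 CPM in WT and 153, 127 and 147 CPM in KO (0.45, SE 0.17), while 8 of the 13 CA3 markers were below 0. Fezf2, a transcription factor of deep cortical layers, was at 20.6, 19.6 and 16.97 CPM in WT and 26.3, 28.9 and 25.3 CPM in KO (0.49, SE 0.21). None of these 5 had an adjusted p under 0.05 by edgeR's quasi-likelihood test.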
